A study of Mus musculus with 6 samples.

Results

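The genes described here encode collagens that do not form the large fibrils themselves: the 3 main chains of the beaded collagen VI (Col6a1, Col6a2 and Col6a3), the chains of the short-chain collagen VIII (Col8a1 and Col8a2), and the fibril-associated collagens XII, XIV and XVI (Col12a1, Col14a1 and Col16a1). These 8 genes were taken by symbol from a table of 34714 genes, and all 8 were found. Expression was measured by RNA sequencing of mouse kidneys that had undergone unilateral ureteral obstruction, in which surgeons tie off the left ureter and scar tissue builds up behind the block. The libraries fall into a group called M92KO, 3 libraries from mice with a global knockout of the microRNA gene Mir92b, and a group called WT, 3 libraries from wild-type mice. All 6 libraries are of obstructed kidneys, and no sham-operated kidney was analysed here. Per the labels the mice were male and 8 weeks old at surgery, and kidneys were collected after 10 days. The wild type is given as C57BL/6J and the knockout as a purchased C57BL/6JGpt strain, and the labels do not say that the groups were littermates. The knockout removes the microRNA from every cell type. The treatment protocol calls the ligated kidneys nonfibrotic controls, whereas the treatment label of every library gives the obstruction surgery. Whether each library is a separate animal is not stated, so p-values measure the spread between these samples, which may be technical.

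Collagen VI chains join into a heterotrimer that assembles into beaded microfilaments around cells, made mostly by fibroblasts, and the end of the Col6a3 chain can be cleaved off as the peptide endotrophin. Collagen VIII forms sheet-like networks and is found in vessel walls. Collagens XII, XIV and XVI are fibril-associated collagens with interrupted triple helices: XII and XIV sit on the surface of collagen I fibrils, where they bind the proteoglycan decorin and tenascin-X, and XVI occurs with thin fibrils and with fibrillin. In kidney scarring several of these collagens are deposited in the interstitium together with the large fibrils. A microRNA lowers its targets by pairing its seed (bases 2 to 8) with a site in the 3' untranslated region (UTR) of the mRNA.

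Library totals ran from 44476507 to 50769801 counts in M92KO and from 38738204 to 51932509 counts in WT. Tubule genes were expressed in every library, as the kidney label requires: Umod, of the thick ascending limb, ranged from 615 to 3773 CPM in M92KO and from 1044 to 3872 CPM in WT (CPM, counts scaled to a common library size, with TMM factors). The table has no row for Mir92b, so the knockout could not be checked in these libraries. Across 18927 genes tested with edgeR, 0 passed an adjusted p of 0.05 (0% of genes), although 829 were higher and 666 lower at an unadjusted p under 0.05; DESeq2 called 62 genes and limma-voom 3. The counts are of bulk tissue, in which more cells of a type and more RNA per cell cannot be told apart.

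The microRNA removed in the knockout is shown first, with the 1 full seed match that the 3' UTRs of the 8 collagens hold, which lies in Col12a1, so that the letters can be compared. Capitals mark the seed in the microRNAs and the matching bases in the mRNA. miR-92a and miR-25 are shown because they share the seed and come from other genes. The microRNAs are RefSeq sequences (GRCm38.p6), and the site was read from a GENCODE M21 transcript.
mmu-miR-92b-3p, chr3:89227126-89227147, minus strand: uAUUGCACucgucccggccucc
mmu-miR-92a-3p: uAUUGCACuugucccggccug
mmu-miR-25-3p: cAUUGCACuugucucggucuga
Col12a1 3' UTR, chr9:79600235-79600264, minus strand: tcccaggttttGTGCAATgattgtgtttac

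The longest annotated 3' UTRs of the 8 genes were from 185 to 2653 bases long and were searched for the 8mer GTGCAATA, for its first 7 bases (GTGCAAT) and for its last 7 bases (TGCAATA). Only Col12a1 held a match, the sequence GTGCAAT at position 916 of its 2178-base 3' UTR, together with 2 matches to the 6-base core TGCAAT elsewhere. Of 15384 tested genes with a 3' UTR to search, 13.4% held at least 1 of the longer sites, so 1 of 8 is near the background. The match is a description of the sequence and was not tested as a site. The coding sequences were not searched, nor were sites of miR-92b-5p.

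All 8 collagens had higher mean levels in M92KO than in WT, by 1.39-fold for Col16a1 to 2.55-fold for Col12a1, and no member passed the adjusted threshold with edgeR (adjusted p from 0.627 to 0.658, n = 3 per group). The log2 fold change (M92KO over WT) was above 0 for 8 of 8 members, against 47.7% of all genes tested, and its median was 0.81, against -0.02 over all genes. The members are not 8 separate observations, because most rose and fell together over the libraries (median pairwise Pearson r of 0.85, below). At an unadjusted p under 0.05, 4 members were higher (Col6a3, Col8a1, Col12a1 and Col14a1), against 4.38% of all genes. The groups did not overlap for 2 members, Col8a1 and Col12a1, both higher in M92KO, against 8.95% of all genes that were higher without overlap. The DESeq2 Wald test called 1 member, Col12a1, where it called 0.183% of genes higher, and limma-voom called 0, against 0.0159% of genes called in either direction. The median of the members was 0.54 without M92KO replicate 2.

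**Figure D1:**
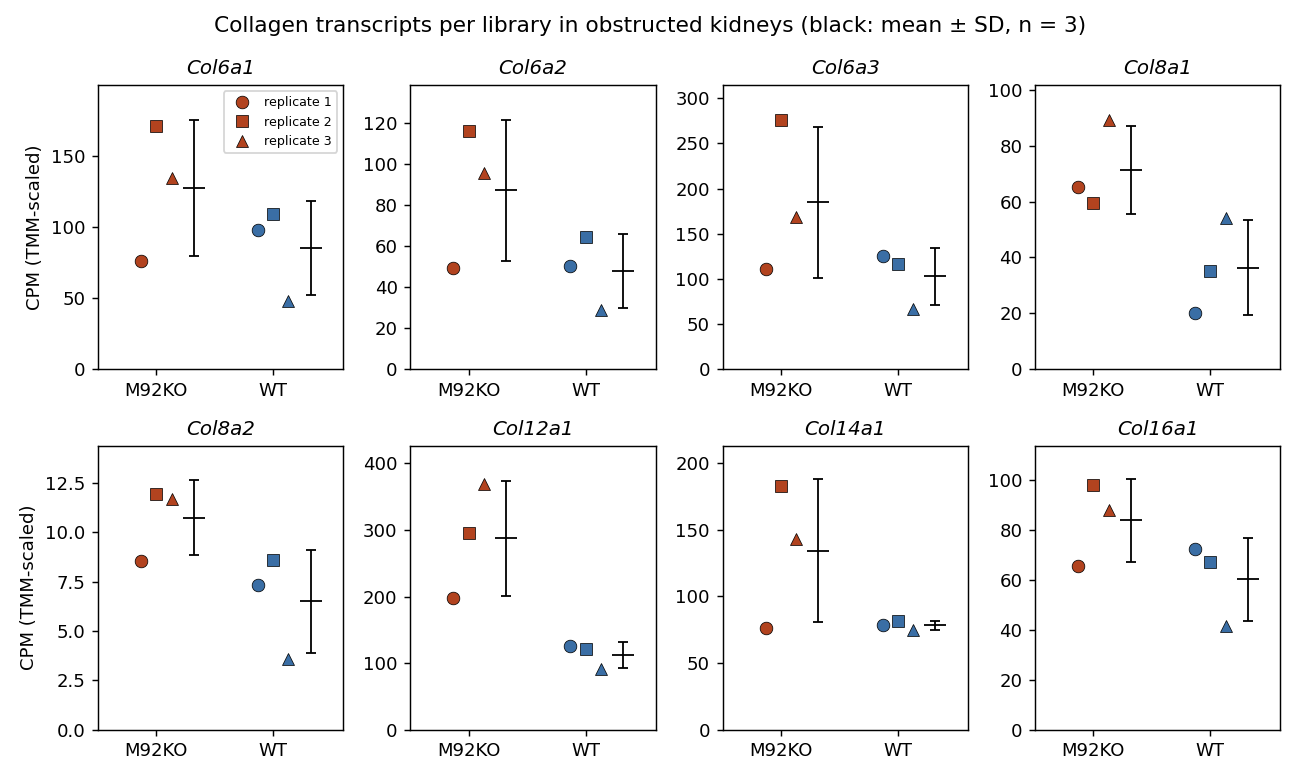
Normalised counts in CPM (y axis, linear from 0, a separate scale per gene) of the 8 collagens in the 3 M92KO and 3 WT libraries; symbols mark the replicate number and black bars the mean ± SD. Only Col8a1 and Col12a1 have all M92KO libraries above all WT libraries, and M92KO replicate 1 lies among the WT libraries for the other 6 genes.

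Of the fibril-associated collagens, Col12a1 (chromosome 9, 79598991 to 79718831, GRCm38, minus strand, 66 exons in its longest transcript) differed most. It encodes collagen XII, a long chain with fibronectin-type and von Willebrand-type domains that links fibrils to the surrounding matrix. It measured 197, 295 and 369 CPM in M92KO replicates 1, 2 and 3, against 126, 122 and 90.5 CPM in WT replicates 1, 2 and 3. Every M92KO library was above every WT library, and the means were 287 ± 86.4 CPM and 113 ± 19.3 CPM (SD, n = 3 each). The log2 fold change was 1.35 ± 0.25 (SE; 95% interval 0.77 to 1.94), at an unadjusted p of 0.000728, which ranked 17 among all genes, and an adjusted p of 0.627 (edgeR quasi-likelihood test). DESeq2 gave an adjusted p of 0.00113 and limma-voom 0.235. Its smallest log2 fold change over the alternatives was 1.00, when replicate 3 was left out of M92KO and WT alike.

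Col14a1 (chromosome 15, 55307750 to 55520803, plus strand) encodes collagen XIV, a close structural relative of collagen XII. It correlated with Col12a1 over the 6 libraries (Pearson r of 0.84 on log2 CPM), but its groups overlapped. It measured 76.5, 183 and 143 CPM in M92KO replicates 1, 2 and 3, against 78.8, 81.4 and 74.5 CPM in WT. The WT libraries lay close together, M92KO replicate 1 lay among them, and the other M92KO libraries were both higher. Means were 134 ± 53.8 CPM in M92KO and 78.2 ± 3.48 CPM in WT (SD, n = 3 each), a log2 fold change of 0.78 ± 0.28 (SE; edgeR adjusted p = 0.627). It was 0.48 without M92KO replicate 2. Within libraries, the log2 ratio of Col12a1 to Col14a1 was 1.37, 0.69 and 1.37 in M92KO and 0.67, 0.58 and 0.28 in WT. This ratio, higher by 0.63 in M92KO and without overlap, was chosen after its values were seen and was not tested. Col16a1 (chromosome 4, 130047840 to 130099283, plus strand), the gene of collagen XVI, had the smallest difference, at 65.7, 98.2 and 88.0 CPM in M92KO against 72.3, 67.2 and 41.4 CPM in WT. M92KO replicate 1 was below WT replicates 1 and 2, and the log2 fold change of 0.48 ± 0.24 (SE; edgeR adjusted p = 0.634) was 0.27 without WT replicate 3.

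The collagen VI chains differed in a like way to one another. Col6a1 (chromosome 10, 76708792 to 76726168) and Col6a2 (chromosome 10, 76595762 to 76623630) lie on the minus strand of the same chromosome, and Col6a3, which encodes the longest of the 3 chains, lies on chromosome 1 (90765923 to 90843971). Col6a1 measured 75.9, 171 and 135 CPM in M92KO replicates 1, 2 and 3, against 98.1, 109 and 47.8 CPM in WT. Col6a2 measured 49.3, 116 and 95.5 CPM in M92KO, against 50.3, 64.5 and 28.7 CPM in WT. Col6a3 measured 111, 276 and 168 CPM in M92KO, against 126, 116 and 66.2 CPM in WT. For all 3 chains M92KO replicate 2 was the highest library, WT replicate 3 the lowest, and M92KO replicate 1 lay below WT replicates 1 and 2. The log2 fold changes were 0.58 ± 0.37 for Col6a1, 0.86 ± 0.37 for Col6a2 and 0.85 ± 0.36 for Col6a3 (SE; edgeR adjusted p = 0.658, 0.627 and 0.627).

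Single libraries weighed on the collagen VI values. Without M92KO replicate 2 the log2 fold changes of Col6a1 and Col6a3 were 0.30 and 0.44, and without WT replicate 3 they were 0.30 and 0.62. Col6a2 was at 0.59 without M92KO replicate 2. When replicate 3 was dropped from M92KO and WT alike, Col6a1, Col6a2 and Col6a3 were at 0.26, 0.53 and 0.68. The log2 ratio of Col6a3 to Col6a1 averaged 0.52 ± 0.18 in M92KO and 0.30 ± 0.20 in WT (SD, n = 3 each), and the groups overlapped. The log2 ratio of Col6a2 to Col6a1 was -0.62, -0.56 and -0.50 in M92KO and -0.96, -0.76 and -0.73 in WT. Col6a2 was thus higher relative to Col6a1 in every M92KO library, by 0.26 on average, a description chosen after the values were seen and not tested.

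The collagen VIII chains differed from each other in how libraries ranked. Col8a1 (chromosome 16, 57624258 to 57754737, minus strand) measured 65.1, 59.7 and 89.1 CPM in M92KO replicates 1, 2 and 3, against 19.9, 35.1 and 53.9 CPM in WT. Every M92KO library was above every WT library, with a gap of a few CPM between M92KO replicate 2 and WT replicate 3. The log2 fold change was 0.97 ± 0.34 (SE; 95% interval 0.18 to 1.76; edgeR adjusted p = 0.627). It was 0.68 without WT replicate 1 and 1.38 without WT replicate 3. WT replicate 3, the lowest library for the other 7 members, was the highest WT library for Col8a1. Col8a2 (chromosome 4, 126286793 to 126314330, plus strand) was the weakest member, at 8.55, 11.9 and 11.7 CPM in M92KO against 7.32, 8.60 and 3.60 CPM in WT. The groups met at M92KO replicate 1 and WT replicate 2, and the log2 fold change was 0.72 ± 0.33 (SE; edgeR adjusted p = 0.627), or 0.43 without WT replicate 3. The log2 ratio of Col8a1 to Col8a2 was 2.93, 2.32 and 2.93 in M92KO and 1.44, 2.03 and 3.91 in WT, and it overlapped.

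**Figure D2:**
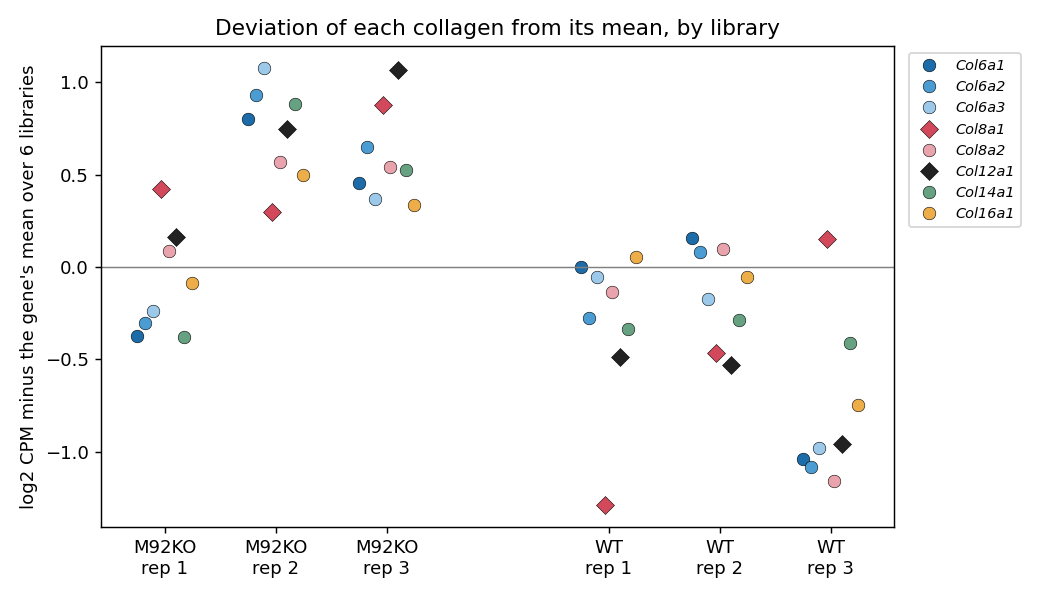
Log2 CPM of each collagen minus its mean over the 6 libraries (y axis) for each library (x axis, M92KO left of WT); each colour is a gene and diamonds mark Col8a1 and Col12a1. M92KO replicates 2 and 3 hold every member above its mean, and WT replicate 3 holds every member below it except Col8a1.

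Promoters of the collagen VIII chains and of the neighbouring collagen VI genes are shown because these pairs encode partner chains whose library patterns were unlike (collagen VIII) or alike (collagen VI). They are RefSeq windows of 250 bases before to 50 bases after the annotated start. Capitals mark 6 motifs searched on both strands. These were the TATA box as TATAAA, the GC box as GGGCGG, the CCAAT box as CCAAT, the site of AP-1 factors as TGANTCA, the core bound by SMAD proteins as CAGAC, and the site of TEAD factors as GGAATG. No motif contains another, but neighbouring matches may run together.
Col8a1 promoter, chr16:57754688-57754987 (GRCm38.p6, minus strand): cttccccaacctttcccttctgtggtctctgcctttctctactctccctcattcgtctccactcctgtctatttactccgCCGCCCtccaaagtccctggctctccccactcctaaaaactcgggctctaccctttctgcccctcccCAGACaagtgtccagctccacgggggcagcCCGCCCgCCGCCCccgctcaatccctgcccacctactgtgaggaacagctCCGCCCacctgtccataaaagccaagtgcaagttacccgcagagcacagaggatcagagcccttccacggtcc
Col8a2 promoter, chr4:126286544-126286843 (GRCm38.p6, plus strand): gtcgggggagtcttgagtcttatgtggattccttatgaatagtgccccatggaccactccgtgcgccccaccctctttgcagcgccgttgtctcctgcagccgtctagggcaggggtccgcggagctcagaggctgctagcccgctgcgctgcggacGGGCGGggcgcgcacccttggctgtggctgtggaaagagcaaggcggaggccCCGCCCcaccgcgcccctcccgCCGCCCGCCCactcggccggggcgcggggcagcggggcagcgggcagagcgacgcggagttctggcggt
Col6a1 promoter, chr10:76725995-76726294 (GRCm38.p6, minus strand): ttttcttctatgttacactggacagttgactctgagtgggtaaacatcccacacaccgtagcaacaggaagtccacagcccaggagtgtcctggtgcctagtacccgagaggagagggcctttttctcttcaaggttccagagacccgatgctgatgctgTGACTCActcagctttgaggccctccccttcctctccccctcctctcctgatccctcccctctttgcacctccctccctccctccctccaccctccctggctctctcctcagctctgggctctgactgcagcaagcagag
Col6a2 promoter, chr10:76623581-76623880 (GRCm38.p6, minus strand): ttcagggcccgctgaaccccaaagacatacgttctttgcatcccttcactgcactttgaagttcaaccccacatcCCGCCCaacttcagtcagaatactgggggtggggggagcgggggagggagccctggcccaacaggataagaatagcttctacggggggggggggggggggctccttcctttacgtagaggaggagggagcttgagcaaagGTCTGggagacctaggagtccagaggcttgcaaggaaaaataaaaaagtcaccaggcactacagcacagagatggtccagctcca

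The Col8a1 and Col8a2 windows each held 4 matches to the GC box, and Col8a1 also 1 to CAGAC. The Col6a1 window held no GC box and 1 AP-1 match, TGACTCA, whereas the Col6a2 window shown held 1 GC box and 1 match to CAGAC. RefSeq gave 7 windows for 6 of the members (Col6a2 has 2), and Col12a1 and Col14a1 have no entry. The Col6a2 window not shown overlaps the one shown and held 3 GC boxes, 1 match to GGAATG and none to CAGAC. The windows of the members were 56.3% to 74.3% G and C, against a median of 52.7% over all windows. GC boxes are made of these letters, so their share was not compared at equal base content. Over the 7 windows, 5 held a GC box, against 35.7% of 32851 promoter windows, 3 held CAGAC, against 49.6%, and 1 held an AP-1 match, against 7.81%. CCAAT was in 1, against 37.4%, GGAATG in 1, against 14.7%, and TATAAA in 0, against 13.6%. These are matches of letters, and binding was not measured.

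Levels can be compared between genes only per length of transcript. In CPM per kb of the longest annotated transcript, Col6a1 was the highest member in both groups, at 31.1 ± 11.7 in M92KO and 20.8 ± 8.00 in WT (SD, n = 3 each). In M92KO it was followed by Col12a1 (24.96 ± 7.51), Col14a1 (20.8 ± 8.32), Col6a3 (18.3 ± 8.30), Col6a2 (17.7 ± 6.96), Col16a1 (16.1 ± 3.20) and Col8a1 (14.0 ± 3.06). In WT the order after Col6a1 was Col14a1 (12.1 ± 0.54), Col16a1 (11.6 ± 3.18), Col6a3 (10.2 ± 3.16), Col12a1 (9.79 ± 1.68), Col6a2 (9.74 ± 3.67) and Col8a1 (7.11 ± 3.34). The libraries of neighbours in both orders overlapped. Col8a2 stood below all of them, at 2.48 ± 0.44 in M92KO and 1.50 ± 0.60 in WT, with every library below every library of the other members. The 8 genes together took 10.2%, 11.9% and 9.57% of all collagen counts in M92KO and 8.56%, 10.3% and 8.87% in WT, an overlap between groups.

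**Figure D3:**
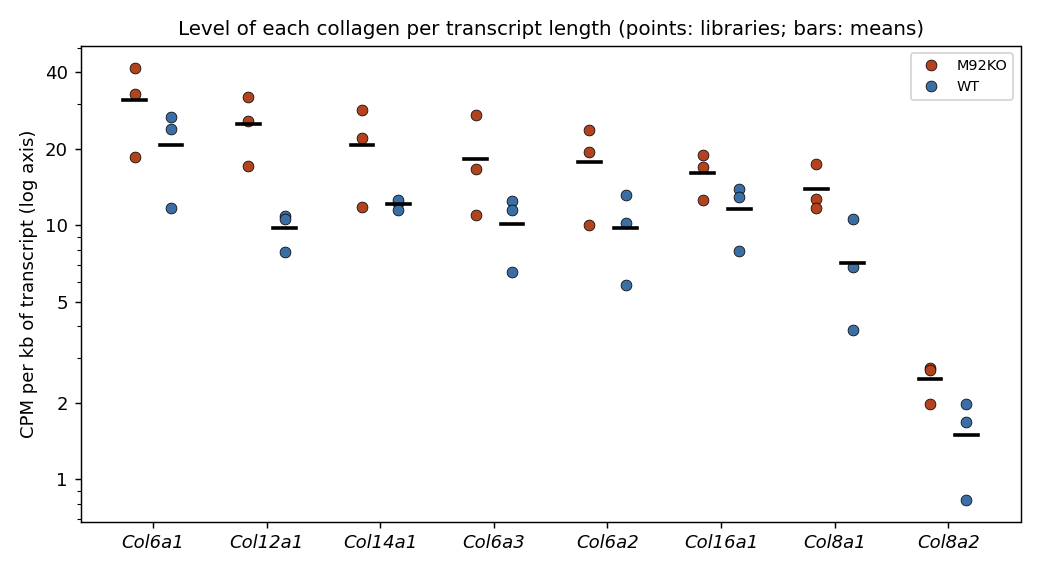
Level of each collagen in CPM per kb of its longest transcript (y axis, log scale) in each library, ordered by the M92KO mean; points are libraries and bars are means. Col8a2 lies below the other 7 genes in both groups, and Col8a1 and Col12a1 show no overlap between M92KO and WT.

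Over the 6 libraries the log2 CPM of the members correlated pairwise at a median Pearson r of 0.85 over 28 pairs, given as a description since libraries and group difference are shared by every pair. The highest r was 0.98, between Col6a1 and Col6a2, and the lowest 0.10, between Col6a1 and Col8a1. M92KO replicates 2 and 3 exceeded all WT libraries for 8 of 8 members, and M92KO replicate 1 for 2 of 8. The 5 other genes, collagens aside, whose log2 CPM followed the members' mean most closely were Mical2 (r = 0.99), which encodes an actin-oxidising enzyme, Antxr1 (0.99), a cell surface receptor for collagens, the endocytic receptor Lrp1 (0.99), the glypican Gpc6 (0.99) and Calhm2 (0.99), from 12412 genes with a mean of at least 5 CPM. Their log2 fold changes lay between 0.42 for Calhm2 and 0.84 for Antxr1, and none passed with edgeR. These genes were picked by that r, and the members' mean differed between groups. Their high r and the direction of their fold changes are therefore not separate findings.

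**Figure D4:**
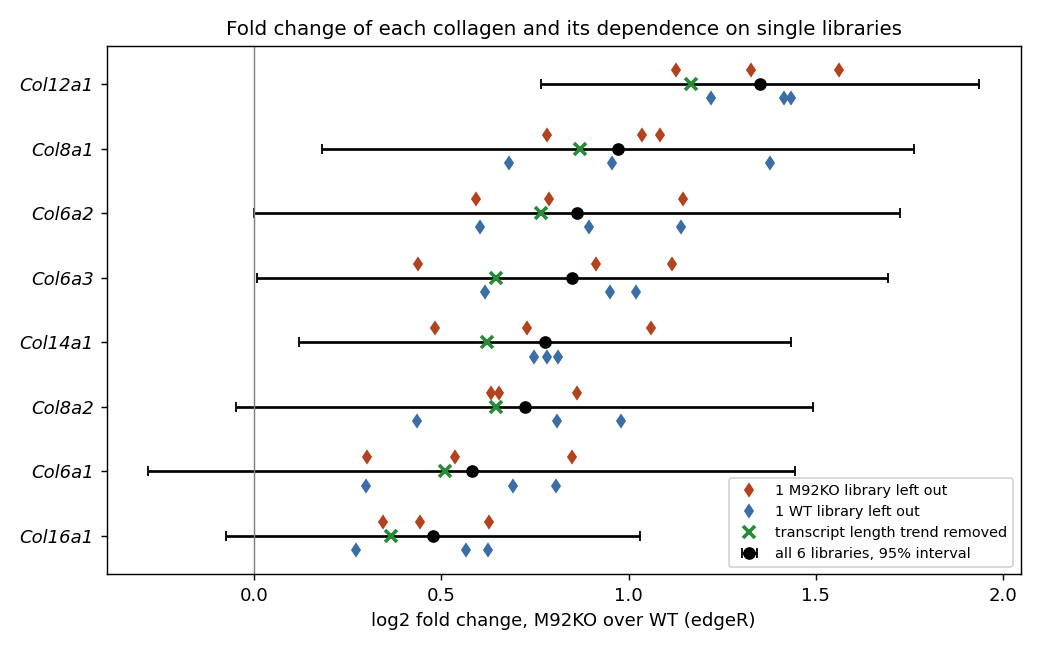
Log2 fold change of each collagen, M92KO over WT (x axis), with its 95% interval from edgeR (black), the values with 1 library left out (diamonds, above the line for M92KO and below it for WT) and the value with the transcript length trend removed (green cross). All point values lie above 0, whereas 4 of the intervals reach 0 or below; with 1 library left out the values run from 0.27 for Col16a1 without WT replicate 3 to 1.56 for Col12a1 without M92KO replicate 1.

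The other collagens are given by class, and none of them passed with edgeR. Among 9 tested relatives of the members (further fibril-associated, type VI and short-chain collagens), 6 had a log2 fold change above 0 with a median of 0.05. Of the 11 relatives listed, Col9a1 was at 0 in every library and Col21a1 had no row in the table of counts. Col6a5, which encodes a collagen VI chain like that of Col6a3, was at 1.46 ± 0.67 (SE), with 12.3 CPM in M92KO replicate 3 and no more than 3.97 CPM in any other library. Col6a4, a related chain gene, was at 0.05 ± 0.71, and Col6a6 at 0.62 ± 0.42. Col10a1, the cartilage short-chain collagen, was at 1.31 ± 0.67, with M92KO replicate 2 highest (4.27 CPM). Of 10 tested fibrillar collagens, 8 were above 0, with a median of 0.70. Col5a2, Col5a1 and Col1a1, fibril-forming chains, stood at 0.94 ± 0.35, 0.97 ± 0.43 and 1.03 ± 0.51. Of 9 basement membrane and anchoring collagens 5 were above 0, with a median of 0.01. Of the 9, 4 were higher in M92KO without overlap, against 8.95% of all genes tested. These were Col15a1, Col4a1, Col4a2 and Col18a1, the first 3 at 1.04 ± 0.25, 0.70 ± 0.21 and 0.72 ± 0.21. Of 6 transmembrane and other collagens, 4 were above 0 (median 0.19), with Col28a1 at 0.56 ± 0.39, Col17a1 at 0.29 ± 0.36 and Col23a1 at 0.19 ± 0.29.

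Receptors and partners of these collagens were described in the same way. Of 12 collagen receptors, 10 were above 0 (median 0.40), and 0 passed the adjusted threshold with edgeR. At an unadjusted p under 0.05 in the same test, 5 of them were higher, against 4.38% of all genes. Antxr1 measured 35.5, 55.0 and 55.4 CPM in M92KO, against 27.6, 32.6 and 21.4 CPM in WT, without overlap, a log2 fold change of 0.84 ± 0.22 (SE; edgeR adjusted p = 0.627). Antxr2, a receptor that takes up collagen VI for degradation, was at 0.46 ± 0.15, and the collagen uptake receptor Mrc2 at 0.58 ± 0.22. Cspg4 (NG2), a proteoglycan that binds collagen VI, was at 0.36 ± 0.15, and Ddr2, a kinase receptor for fibrillar collagen, at 0.70 ± 0.28. The other receptors of the list, the integrin chains and those below 0 among them, are counted above and not named. All 12 tested matrix partners of collagens VI, XII and XIV were above 0 (median 0.65), with the smallest p for Fbn1 at 1.19 ± 0.26, Fn1 at 1.00 ± 0.25 and Bgn, biglycan, which binds collagen VI, at 0.76 ± 0.23. Bgn measured 739, 1173 and 926 CPM in M92KO, against 620, 587 and 467 CPM in WT, without overlap. Decorin (Dcn) and tenascin-X (Tnxb), which bind collagens XII and XIV, were at 0.45 ± 0.29 and 0.36 ± 0.32, with overlap. Of 21 genes of collagen folding, crosslinking and cleavage, 19 were above 0 (median 0.34), with the smallest p for Mmp2 at 0.93 ± 0.28, Loxl2 at 0.83 ± 0.29 and P3h1, a prolyl hydroxylase, at 0.37 ± 0.15.

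Markers of cells that make or surround these collagens are given for whole lists. Each has its 3 genes of smallest p among those that averaged 1 CPM or more in either group. Of 14 fibroblast and myofibroblast markers, none a collagen, 13 were above 0 (median 0.54). Dpt, dermatopontin, was higher without overlap at 0.88 ± 0.28 (log2 fold change ± SE), and Pdgfra and Pi16 were at 0.77 ± 0.28 and 0.61 ± 0.34 with overlap. Pdgfra measured 101, 193 and 145 CPM in M92KO and 105, 91.7 and 60.3 CPM in WT, with M92KO replicate 2 highest and WT replicate 3 lowest. The summed level of the list, to which abundant markers contribute most, was 847, 1396 and 2348 CPM in M92KO and 1840, 933 and 795 CPM in WT, and it overlapped. Macrophage markers summed to 1018 to 1160 CPM in M92KO and 913 to 943 CPM in WT, without overlap. All 8 were above 0, against 47.7% of all genes tested, and 4 of them were higher without overlap, against 8.95%. Among these 4 were Itgam at 0.40 ± 0.13, C1qb at 0.33 ± 0.13 and Adgre1 at 0.59 ± 0.29. Vascular smooth muscle and pericyte markers summed to 240 to 484 CPM in M92KO and 244 to 385 CPM in WT, with 5 of 8 above 0. Kcnj8, Notch3 and Des were at 0.48 ± 0.33, 0.34 ± 0.23 and 0.31 ± 0.25 (SE), each with overlap. Those below 0 are counted and not named. Endothelial markers summed to 289 to 840 CPM in M92KO and 318 to 600 CPM in WT, with 6 of 7 above 0. Kdr, Pecam1 and Flt1 were at 0.60 ± 0.39, 0.59 ± 0.39 and 0.40 ± 0.29 (SE), each with overlap.

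Epithelial and other markers were checked too. Distal nephron and collecting duct markers summed to 944 to 4944 CPM in M92KO and 1851 to 5004 CPM in WT, with 0 of 8 above 0. Aqp2, the collecting duct water channel, was at -1.26 ± 0.58 and Fxyd4 at -0.76 ± 0.15 (SE), both lower without overlap, and Slc12a1 was at -0.55 ± 0.47. Proximal tubule markers summed to 1474 to 4233 CPM in M92KO and 2515 to 5777 CPM in WT, lowest in M92KO replicate 3, with 1 of 8 above 0. Slc27a2, Slc5a2 and Slc5a12 were at -0.63, -0.60 and -0.26 with overlap. Podocyte markers summed to 436 to 551 CPM in M92KO and 426 to 513 CPM in WT, with 2 of 6 above 0. Nphs1 was at -0.68 ± 0.20 without overlap, and Podxl and Synpo at 0.24 and 0.22. Urothelial markers summed to 149 to 232 CPM in M92KO and 147 to 333 CPM in WT, with 4 of 6 above 0, and Upk1a, Krt5 and Krt20 at 0.69, -0.61 and 0.25. Of 7 adipocyte markers 5 were tested, 4 of them above 0, and they summed to 50.7 to 296 CPM in M92KO and 65.3 to 106 CPM in WT. M92KO replicate 1 was highest, and Adipoq, Cidec and Fabp4 were at 2.03 ± 1.95, 1.86 ± 1.44 and 0.51 ± 0.42 (SE). Skeletal muscle markers summed to 1.93 to 2.52 CPM in M92KO and 6.40 to 7.46 CPM in WT, with 1 of 7 above 0. Myh4 was at 0 in every M92KO library, against 1.43, 1.07 and 1.11 CPM in WT. Acta1 was at -2.24 without overlap, and Actn3 at 0.01 with overlap. Over the list, 5 of 7 were lower without overlap, against 1362 of 18927 genes tested. At an unadjusted p under 0.05 (edgeR), 5 were lower, against 666 of all genes. None of these markers passed the adjusted threshold with edgeR, no defining marker of any list was at 0 in every library, and the part of any cell type in the collagen differences was not tested.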

How the data were processed

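RNA sequencing counts were analysed for 6 libraries of obstructed mouse kidneys, 3 per group. The authors deposited a table of raw, whole-number counts with a row for each gene symbol and a column for each library. The submitters' processing notes list GRCm38, also called mm10; aligner, counter and strand setting were not given in the sources used here, so genes that overlap a member on either strand may share its counts. Annotated genes lie within the spans of Col6a3, Col12a1 and Col14a1, none of them among the genes tested. The knockout columns give the parts of the library name in another order and were matched by those parts and the number. Titles gave the groups and the replicate numbers.

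A filter on low counts (filterByExpr) was applied first (18927 of 34714 kept, all 8 members among them), scaled by TMM and compared with edgeR 4.0.16 by its quasi-likelihood test (robust fit, group as the only term) in R 4.3.3, with Benjamini-Hochberg adjustment over all genes and a threshold of 0.05. Log2 CPM used a prior count of 2, and ratios none. Standard errors were computed as the log2 fold change over the square root of F. The common biological coefficient of variation was 26.9%. The pipeline was run on simulated counts with known fold changes and the same dispersion for every gene. That run checks the code and does not bear on whether the collagens differed. Coordinates and lengths came from GENCODE M21.

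The members and the 17 other gene lists were chosen with earlier results of these data known. Besides the members, the text names from each list the 3 genes with the smallest p that averaged 1 CPM or more in either group, plus the 5 genes of most like pattern (predicted genes left out); other genes were named by their role after their values were seen. Alternatives were other scaling factors, DESeq2 1.42.0, limma-voom (limma 3.58.1), other filters, robust fitting off, the replicate block, removal of the transcript length trend and libraries left out. Every limma-voom value given here used quality weights, by which libraries can count unequally.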

Additional observations from a re-analysis of the deposited data

How the results depend on the processing

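All 8 members had a log2 fold change above 0 in each of the 18 alternatives, and the count past the adjusted threshold stayed 0 in 17 of them. The exception was the DESeq2 Wald test, which called 1 member, Col12a1. With 1 library left out, the count was 0 to 0 past the threshold and 8 to 8 above 0, and the median of the members ranged from 0.54 to 1.05. With the transcript length trend removed the median was 0.65, and when replicate 3 was dropped from M92KO and WT alike 0.61. The median of all genes stayed between -0.05 and 0.01 over the alternatives. With 1 library left out, the difference between groups (M92KO minus WT) in the log2 ratio of Col8a1 to Col8a2 ranged from -0.24 to 0.99, that of Col6a3 to Col6a1 from 0.10 to 0.31, and that of the share of collagen counts from 0.65 to 1.84 percentage points. Same-numbered libraries did not deviate together (correlations of -0.28, 0.18 and -0.29 over genes), so the numbers were not taken to pair samples. The replicate block gave a median of 0.80 and 0 calls among the members, and across all genes 1 call in place of 0. Across all genes DESeq2 made 62 calls, limma-voom 3, and the fit without a filter 2. With 3 libraries per group and this spread, a missed threshold does not show that a collagen did not differ.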
